A study of Rattus norvegicus with 10 samples.

Results

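Solute carriers are membrane proteins that move sugars, amino acids, ions, metals, vitamins, nucleotides and metabolites across the plasma membrane and the membranes of organelles. Their genes carry the root symbol Slc, a family number, a letter and a member number, and families are defined mainly by sequence. In the mammary gland, members of the group bring glucose and amino acids into milk-forming epithelium, move phosphate, calcium and zinc toward milk, and load the mitochondria and the Golgi apparatus with their substrates.

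The genes described here were those whose array symbol follows this pattern, of which there were 225, after 6 were left out by name (Slc34a2, Slc18a2, Slc11a2, Slc40a1, Slc25a1 and Slc25a20). Of the 219 genes that remained, 130 had a geometric mean signal of 160 or more over all arrays on their brightest probe set, and 89 did not. The 130 genes came from 38 families and had 170 probe sets, with several probe sets for 29 genes. They were part of 10411 named genes on the array. Signal level over all arrays chose both the genes and the probe set that stands for each, so the levels are a description and carry no test; the diet of an array played no part in that choice. Just inside the limit lay Slc6a3, Slc22a13 and Slc1a3, with geometric means of 160.3, 163 and 164. Just outside lay Slc25a48, Slc4a3 and Slc9a5, with 158, 157 and 155. In 5 of the 130 genes (Slc22a13, Slc31a2, Slc3a1, Slc4a4 and Slc6a3) the mean of at least 1 diet lay under 160, so that they passed the limit through the other arrays.

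RNA of the fourth mammary gland of female Sprague-Dawley rats was measured on Affymetrix RAE230 arrays at postnatal day 50, in animals fed 1 of 3 purified diets. There were 4 arrays of the SPI diet (soy protein isolate), 3 of the GEN diet (genistein, the main soy isoflavone) and 3 of the CAS diet (casein, the control protein). The titles give only the 3 abbreviations, and the protein names come from general knowledge of this feeding design. Each RNA sample pooled 2 animals, and 3 replicate targets were made from each pool. Which arrays came from the same pool is not stated, so the tests measure the spread between arrays. Part of that spread, or within a diet all of it, may be technical.

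The labels call the source epithelial cells. Of 14 luminal epithelial marker genes on the array, 13 had a signal of 160 or more on every array, and so did all 8 endothelial markers. The adipocyte genes Fabp4 (10206 to 16003) and Lpl (3764 to 5173) were bright on all arrays, whereas Plin1 (24.7 to 110.2) and Lep (6.6 to 18.8) were dim, and the estrogen receptor gene Esr1 lay at 9.5 to 16.1. The arrays are therefore described as whole gland, in which fewer cells of a type and less RNA per cell cannot be told apart. Median signals of the arrays lay between 222.8 and 256.7, and correlations between arrays between 0.925 and 0.950. The array SPI 4 had an actin 3'/5' ratio of 7.77, against 2.83 to 5.22 on the other arrays, and CAS 1 had a mean log2 signal of skeletal muscle markers of 8.57, against 5.52 to 6.58 elsewhere.

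No solute carrier gene passed an adjusted p of 0.05 in limma between any 2 diets. The tests covered 129 of the 130 genes, since Slc6a3 lay below the filter on dim probe sets. Across all 9520 probe sets tested, the percentage past the same threshold was 0% in each comparison. The smallest adjusted p among solute carriers was 0.832 between SPI and CAS, 0.825 between GEN and CAS, and 0.402 between SPI and GEN. Every difference given below is therefore a measured value that did not pass the test.

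At an unadjusted p under 0.05, SPI against CAS had 7 solute carriers, which is 5.43% of the 129, against 4.82% of all probe sets. Of the 7, 3 were higher and 4 lower, beside 1.53% higher and 3.29% lower over all probe sets. GEN against CAS likewise had 7 (5.43%, against 5.89% of all probe sets), with 3 higher and 4 lower beside 2.7% and 3.19% over all probe sets. SPI against GEN had 11 (8.53%, against 7.95%), with 2 higher and 9 lower beside 3.7% and 4.25% over all probe sets. The shares of both directions together are near the background in all 3 comparisons. When each array was centred on its median, the counts were 3 higher and 1 lower between SPI and CAS, beside 3.15% and 1.83% of all probe sets so centred. They were 4 and 4 between GEN and CAS, beside 2.74% and 2.99%, and 2 and 6 between SPI and GEN, beside 6.43% and 2.86%.

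The number of genes whose diets did not overlap was read in the same way. For SPI against CAS it was 8 (6.20%, against 4.6% of all probe sets), with 2 higher and 6 lower beside 1.78% and 2.83% over all probe sets. For GEN against CAS it was 17 (13.2%, against 11.1%), with 10 higher and 7 lower beside 5.7% and 5.41%. For SPI against GEN it was 12 (9.30%, against 8.5%), with 2 higher and 10 lower beside 4.13% and 4.37%. The GEN and SPI comparisons with CAS share the CAS arrays.

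The typical solute carrier lay close to no difference. The median log2 difference was -0.03 in SPI against CAS (57 genes higher, 72 lower), 0.03 in GEN against CAS (69 higher, 60 lower) and -0.02 in SPI against GEN (61 higher, 68 lower). Over all probe sets tested, the medians were -0.01, -0.01 and -0.0043 in the same order. The 95% interval lay within a 2-fold difference in either direction for 123, 120 and 125 of the 129 genes. The extremes among the 129 genes ran over -0.82 to 0.69 in SPI against CAS, -0.74 to 0.50 in GEN against CAS, with -0.70 to 0.49 in SPI against GEN.

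**Figure D1:**
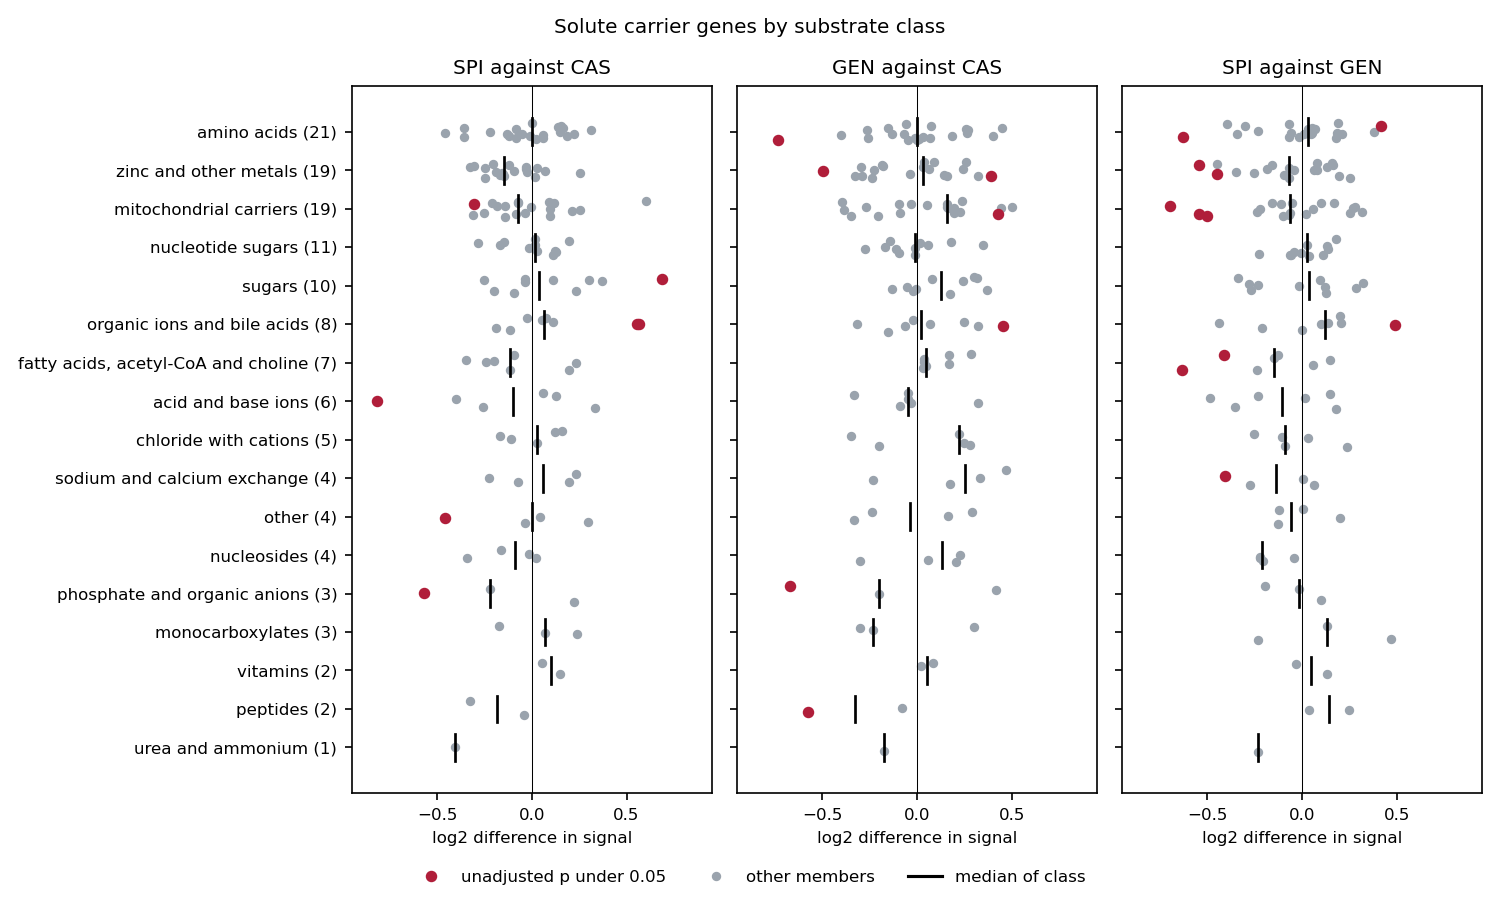
Log2 differences in signal between diets for 129 solute carrier genes, in rows by substrate class with the number of genes tested in brackets. Points are genes, red where the unadjusted p was under 0.05, and black bars are class medians. Points of the larger classes lie on both sides of 0 in each panel.

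By substrate, the largest classes were carriers of amino acids (22 genes, 21 tested), mitochondrial carriers of the Slc25 family (19), carriers of zinc and other metals (19), the Slc35 family of nucleotide sugar carriers (11) and carriers of sugars (10). The class follows the family number alone, so a class can hold genes with another substrate. Slc6a4 and Slc6a8, for example, are counted with the amino acids through their family. Amino acid carriers divided nearly evenly, with 11 higher and 10 lower in SPI than in CAS, 11 and 10 in GEN against CAS, and 12 and 9 in SPI against GEN. Their median differences were 0.0033, 0.0012 and 0.03 in that order. The sugar carriers had medians of 0.04, 0.13 and 0.04. In the plot of classes, the metal carriers of SPI against CAS and the fatty acid and choline carriers of GEN against CAS lie mostly to 1 side, and both are described below with their scaling.

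Carriers of zinc and other metals were lower in SPI than in CAS for 15 of 19 genes, with a median log2 difference of -0.15. The count was 14 of 19 after quantile normalization and 12 of 19 when each array was centred on its median. Of all 9520 probe sets tested, 4976 were lower in SPI than in CAS, 4544 after quantile normalization and 3607 after centring. Zinc exporters of the Slc30 family, which move zinc out of the cytosol into vesicles, organelles or the outside, were lower for 6 of 6 genes with a median of -0.15, and for 5 of 6 after centring. The Slc39 family, which brings zinc into the cytosol, was lower for 6 of 8 genes. None of the 19 genes had an unadjusted p under 0.05 in that comparison. Some cell type markers were lower in SPI than in CAS too, in 12 of 14 luminal genes (median -0.30), 10 of 10 fibroblast genes (-0.47) and 8 of 8 macrophage genes (-0.65). Skeletal muscle markers were lower for 10 of 10 genes (-0.85). Endothelial markers were higher for 8 of 8 genes (0.21) and Schwann cell markers for 4 of 6 (0.18). Basal epithelial and lymphocyte markers were each 4 higher and 4 lower, and adipocyte markers 3 higher and 4 lower. The part of the markers' levels in the metal carriers' values was not tested. In SPI against GEN, 11 of the 19 were lower, among them Slc30a4 and Slc30a5, the zinc exporters at an unadjusted p under 0.05.

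The 250 bases before the gene start of those 2 exporters are shown because both genes were lower in SPI than in GEN, and because zinc itself acts on some promoters through the metal response element. Sequences are RefSeq's on GRCr8, read 5′ to 3′ on the gene's strand, with capitals where the element's core TGCNCNC was found on either strand.
Slc30a4, chr3:130228889-130229138, minus strand: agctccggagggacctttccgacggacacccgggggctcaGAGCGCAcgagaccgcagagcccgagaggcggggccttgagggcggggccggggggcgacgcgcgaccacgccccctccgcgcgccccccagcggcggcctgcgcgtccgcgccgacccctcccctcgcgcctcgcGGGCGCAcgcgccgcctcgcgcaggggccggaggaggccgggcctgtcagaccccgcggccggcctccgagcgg
Slc30a5, chr2:33709899-33710148, minus strand: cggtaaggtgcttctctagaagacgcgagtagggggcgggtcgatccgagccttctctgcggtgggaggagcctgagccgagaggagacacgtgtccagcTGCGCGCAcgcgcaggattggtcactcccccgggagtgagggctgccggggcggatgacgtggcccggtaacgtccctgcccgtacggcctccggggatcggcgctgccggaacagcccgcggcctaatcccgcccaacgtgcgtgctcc

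Each window held 2 matches to the core, and those of Slc30a5 overlap on opposite strands. The core is short and common: it was found in 43.4% of 33469 promoter windows of this length, in 63 of the 106 solute carrier genes that had a window (59.4%), and in 10 of the 16 metal carriers that had one. The full estrogen response element, searched as GGTCA and TGACC with 3 free bases between them and known as the binding site of the receptors that genistein can bind, was in 0.0239% of all windows and in 0 of the 106. Its half-site AGGTCA was in 14.1% of all windows and in 13 of the 106 (12.3%). A window counted once however many matches it held, both strands were read, and a match describes letters only. The shares over all windows count windows, whereas a solute carrier gene counted if any of its windows held a match. The 2 kinds of share are therefore not directly comparable.

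Slc30a4 moves zinc into secretory vesicles, and its loss in the mouse gives zinc-poor milk. Its signal was 643.2, 648.8, 634.6 and 782.4 on the SPI arrays, 1129.3, 888.2 and 944.9 on the GEN arrays, and 942.4, 651.6 and 682.0 on the CAS arrays. All SPI arrays lay below all GEN arrays, while the CAS arrays spanned the gap between them. The log2 difference of SPI against GEN was -0.54 ± 0.16 (SE; limma adjusted p = 0.508), and that of GEN against CAS was 0.39 ± 0.17 (adjusted p = 0.825).

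Slc30a5, which loads zinc into the early secretory pathway, had signals of 241.9, 162.7, 237.8 and 229.2 on the SPI arrays, 256.8, 313.7 and 314.0 on the GEN arrays, and 207.5, 275.4 and 257.5 on the CAS arrays. The SPI arrays again lay below the GEN arrays without overlap, and the array SPI 3 was the lowest of all. The difference of SPI against GEN was -0.45 ± 0.20 on the log2 scale (limma adjusted p = 0.606). Slc39a7, which releases zinc from the endoplasmic reticulum and Golgi, had signals of 943.8, 1013.6, 744.7 and 1131.1 on the SPI arrays, 713.8, 758.3 and 930.5 on the GEN arrays, and 1498.7, 889.3 and 1061.4 on the CAS arrays. Its difference of GEN against CAS was -0.50 ± 0.21 (limma adjusted p = 0.825), the ranges overlapped, and without CAS 1 it was -0.29.

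**Figure D2:**
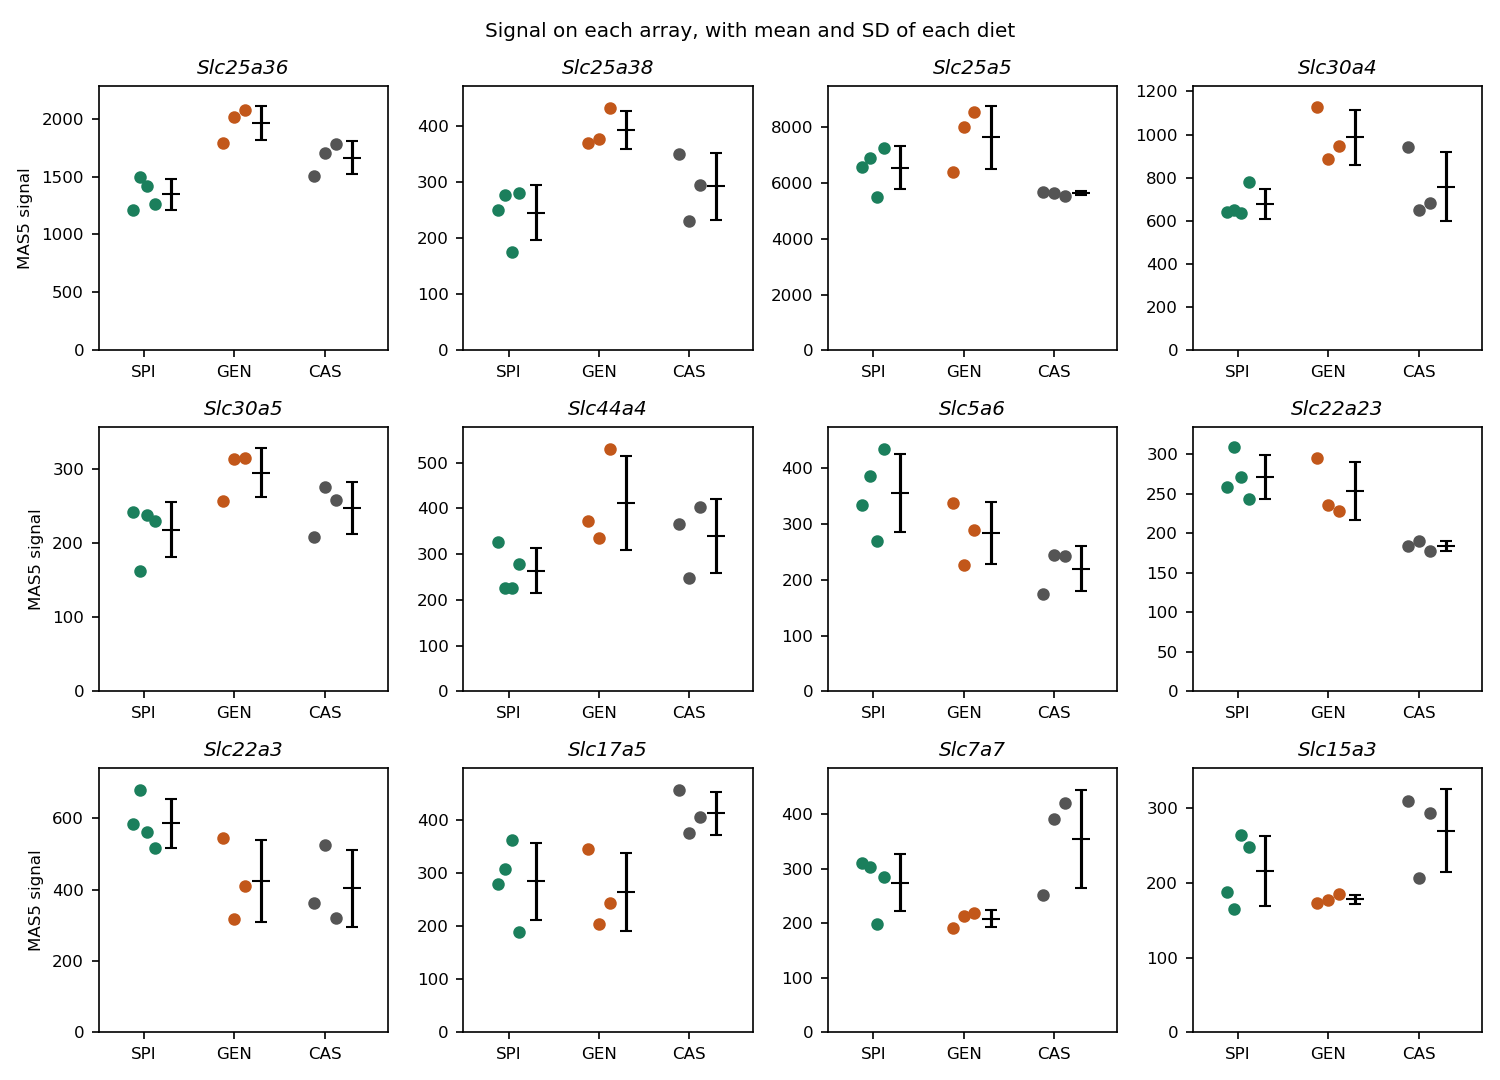
MAS5 signal of 12 solute carrier genes on each array, on a linear axis from 0, with the SPI arrays (n = 4) at the left, the GEN arrays (n = 3) in the middle and the CAS arrays (n = 3) at the right. Points are arrays, and the bar beside them is the mean with its SD. Slc25a36 has SPI lowest, at 1213.3 to 1491.6, and GEN highest, at 1793.3 to 2072.6, with no overlap.

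Mitochondrial carriers of the Slc25 family exchange nucleotides, metabolites and ions across the inner mitochondrial membrane. In GEN against CAS, 11 of 19 were higher, with a median log2 difference of 0.16 (0.10 after quantile normalization). In SPI against CAS 7 were higher and 12 lower (median -0.07), but the median was 0.0011 when arrays were centred on their medians. Over all probe sets tested and so centred, the median was 0.06. In SPI against GEN 8 were higher and 11 lower, and the 3 members at an unadjusted p under 0.05 were all lower.

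Slc25a36 carries pyrimidine nucleotides into mitochondria and had the smallest adjusted p of any solute carrier. Its signal was 1213.3, 1491.6, 1422.1 and 1259.3 on the SPI arrays, 1793.3, 2013.3 and 2072.6 on the GEN arrays, and 1506.8, 1699.5 and 1782.1 on the CAS arrays. The 3 diets did not overlap, in the order SPI, CAS and GEN from low to high. The log2 difference was -0.54 ± 0.13 for SPI against GEN (limma adjusted p = 0.402), -0.31 ± 0.13 for SPI against CAS and 0.24 ± 0.14 for GEN against CAS.

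Slc25a38, which brings glycine into mitochondria for heme synthesis, had the lowest difference of SPI against GEN. Its signal was 250.1, 277.9, 175.7 and 280.0 on the SPI arrays, 369.3, 377.3 and 432.1 on the GEN arrays, and 350.9, 231.0 and 295.6 on the CAS arrays. Each GEN array was above every SPI and CAS array. The difference was -0.70 ± 0.21 for SPI against GEN (limma adjusted p = 0.499) and 0.44 ± 0.22 for GEN against CAS.

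The ADP/ATP carrier gene Slc25a5 had signals of 6559.0, 6893.1, 5484.8 and 7250.3 on the SPI arrays, 6378.7, 8008.4 and 8544.5 on the GEN arrays, and 5689.3, 5656.3 and 5540.8 on the CAS arrays. The CAS arrays were close together and below every GEN array, and all SPI arrays but SPI 4 were above them too. For GEN against CAS the difference was 0.43 ± 0.14 (limma adjusted p = 0.825). Slc25a10, the dicarboxylate carrier, had 271.5, 201.0, 133.9 and 197.7 on the SPI arrays, 249.9, 266.2 and 317.2 on the GEN arrays, and 226.1, 248.3 and 250.6 on the CAS arrays. Its difference of SPI against GEN was -0.50 ± 0.22 with overlapping ranges, and -0.32 without SPI 4, which held the lowest value.

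Carriers of fatty acids, acetyl-CoA and choline were higher in GEN than in CAS for 7 of 7 genes, though by little: the median log2 difference was 0.05 and the range 0.03 to 0.28. The count was 7 of 7 under quantile normalization and median centring too. Of all 9520 probe sets tested, 4560 were higher in GEN than in CAS, 4708 after quantile normalization and 4719 after centring. Luminal markers were higher in GEN than in CAS for 12 of 14 genes (median 0.38) and basal epithelial markers for 7 of 8 (0.54). Lymphocyte markers were higher for 5 of 8 genes (0.26), Schwann cell for 4 of 6 (0.18) and endothelial for 5 of 8 (0.03). Skeletal muscle markers were lower for 9 of 10 genes (-0.69), adipocyte for 4 of 7 (-0.34), macrophage for 6 of 8 (-0.29) and fibroblast for 9 of 10 (-0.23). The part of the markers' levels in the class's values was not tested. In SPI against GEN 5 of the 7 carriers were lower, including Slc44a4 and Slc33a1. Slc44a4, a choline transporter-like protein of epithelia, had signals of 327.0, 225.2, 227.0 and 277.4 on the SPI arrays, 372.3, 335.2 and 529.4 on the GEN arrays, and 365.3, 248.2 and 403.7 on the CAS arrays. The SPI and GEN arrays did not overlap, and the difference between them was -0.63 ± 0.22 (limma adjusted p = 0.561).

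Slc33a1, which carries acetyl-CoA into the endoplasmic reticulum, had 411.5, 281.7, 263.7 and 330.1 on the SPI arrays, 435.4, 413.8 and 415.0 on the GEN arrays, and 391.6, 363.8 and 368.2 on the CAS arrays. The GEN arrays were the highest, and SPI lay below GEN without overlap, with a log2 difference of -0.41 ± 0.17 (limma adjusted p = 0.583). Most cell type marker lists were lower in SPI than in GEN too. Luminal markers were lower for 14 of 14 genes, with a median of -0.69. Their summed signal was 9980 to 21422 on SPI arrays, 22844 to 30982 on GEN arrays and 16017 to 26214 on CAS arrays. Basal epithelial markers were lower for 6 of 8 genes (median -0.83), skeletal muscle for 9 of 10 (-0.50) and lymphocyte for 6 of 8 (-0.34). Macrophage markers were lower for 7 of 8 genes (-0.29), fibroblast for 8 of 10 (-0.26) and Schwann cell for 5 of 6 (-0.20). Endothelial markers were higher for 6 of 8 genes (0.16) and adipocyte markers for 4 of 7 (0.05). The part of the markers' levels in the genes' differences was not tested.

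**Figure D3:**
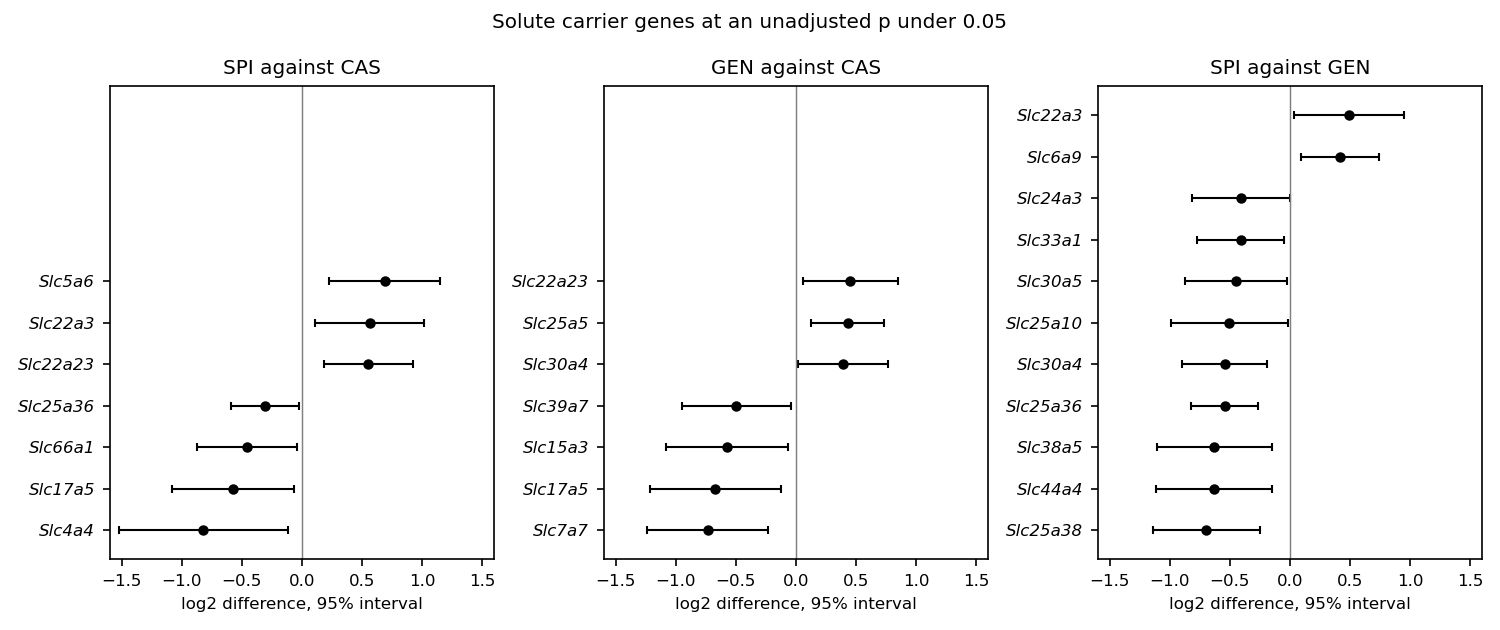
Log2 difference with its 95% interval from limma for the solute carrier genes at an unadjusted p under 0.05 in each comparison, highest at the top. Of the 11 genes of SPI against GEN, 9 lie below 0, and none of the genes shown passed the adjusted threshold.

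The 3 genes higher in SPI than in CAS at an unadjusted p under 0.05 carry a vitamin or belong to the Slc22 family of organic ion carriers. Slc5a6 takes up biotin and pantothenate, although its family is otherwise one of sodium-coupled sugar carriers and it is counted with the sugars here. Its signal was 334.6, 385.7, 270.4 and 434.2 on the SPI arrays, 337.6, 227.2 and 289.0 on the GEN arrays, and 173.8, 244.4 and 242.9 on the CAS arrays. SPI arrays were all above CAS arrays, by 0.69 ± 0.21 on the log2 scale (limma adjusted p = 0.832), and GEN arrays overlapped both.

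Slc22a23, a carrier with no settled substrate, had 258.7, 308.7, 270.7 and 243.7 on the SPI arrays, 295.4, 235.1 and 228.6 on the GEN arrays, and 184.4, 189.6 and 177.2 on the CAS arrays. It was the only member at an unadjusted p under 0.05 and higher in both diets against CAS, without overlap in either: 0.55 ± 0.17 for SPI (limma adjusted p = 0.832) and 0.45 ± 0.18 for GEN (adjusted p = 0.825). Both values use the same CAS arrays. The organic cation carrier gene Slc22a3 had 584.0, 679.4, 562.0 and 517.0 on the SPI arrays, 545.2, 317.5 and 410.6 on the GEN arrays, and 363.2, 524.4 and 321.7 on the CAS arrays. SPI was higher than CAS by 0.56 ± 0.21 (limma adjusted p = 0.987) and higher than GEN by 0.49 ± 0.21 (adjusted p = 0.598), with 1 array of each other diet inside the SPI range. Without GEN 3 the second value was 0.30.

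The next 4 genes, from several classes, were lower than in CAS at an unadjusted p under 0.05 in at least 1 comparison. Slc17a5, which exports sialic acid from lysosomes, had signals of 280.3, 307.4, 361.9 and 188.9 on the SPI arrays, 346.6, 203.8 and 244.5 on the GEN arrays, and 456.8, 375.7 and 406.9 on the CAS arrays. All CAS arrays were above all others, with differences of -0.57 ± 0.24 for SPI (limma adjusted p = 0.987) and -0.67 ± 0.25 for GEN (adjusted p = 0.825). Slc66a1, the lysosomal exporter of cationic amino acids, had 183.8, 181.0, 138.3 and 188.4 on the SPI arrays, 166.7, 211.3 and 187.7 on the GEN arrays, and 257.7, 221.9 and 229.7 on the CAS arrays. Again no array of SPI or GEN reached the CAS range, and the differences were -0.46 ± 0.19 for SPI and -0.33 ± 0.20 for GEN.

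Slc15a3, a lysosomal carrier of histidine and peptides known from immune cells, had 187.8, 164.7, 264.0 and 247.7 on the SPI arrays, 173.5, 176.9 and 184.9 on the GEN arrays, and 309.8, 206.6 and 294.5 on the CAS arrays. The GEN arrays lay close together and below the CAS arrays, by a log2 difference of -0.58 ± 0.23 (limma adjusted p = 0.825). Slc7a7, the partner of Slc3a2 in exporting cationic amino acids, had 311.4, 303.4, 198.5 and 285.7 on the SPI arrays, 191.0, 214.5 and 220.0 on the GEN arrays, and 252.3, 392.4 and 420.5 on the CAS arrays. GEN lay below CAS without overlap, with a difference of -0.74 ± 0.23 (limma adjusted p = 0.825), the lowest among solute carriers in that comparison.

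Macrophage, fibroblast and skeletal muscle markers were mostly lower than in CAS beside these genes. Of the macrophage markers, 8 of 8 were lower in SPI than in CAS (median -0.65) and 6 of 8 lower in GEN than in CAS (median -0.29). Their summed signal was 5231 to 10344 on SPI arrays, 6499 to 11414 on GEN arrays and 7059 to 17612 on CAS arrays. Mean log2 signal of these markers was 10.25 on CAS 1, 9.20 on CAS 2 and 10.42 on CAS 3. Slc17a5, Slc66a1 and Slc15a3 were lowest of the CAS arrays on CAS 2, as the markers were, and Slc7a7 was lowest on CAS 1. Within the other diets the markers were lowest on SPI 4 (8.90) and GEN 1 (9.13), and highest on SPI 5 (9.86) and GEN 3 (10.05). Slc17a5 ran the other way, highest on SPI 4 and GEN 1 and lowest on SPI 5 and GEN 3. Slc15a3 was highest of the SPI arrays on SPI 4 but lowest of the GEN arrays on GEN 1. Slc66a1 and Slc7a7 were lowest of their diets on SPI 4 and GEN 1. Fibroblast markers were lower in SPI than in CAS for 10 of 10 genes (median -0.47) and lower in GEN than in CAS for 9 of 10 (median -0.23). Their summed signal was 39037 to 79016 on SPI arrays, 54442 to 69348 on GEN arrays and 55686 to 103853 on CAS arrays. Skeletal muscle markers were lower in SPI than in CAS for 10 of 10 genes (median -0.85) and lower in GEN than in CAS for 9 of 10 (-0.69). Their mean log2 signal was 8.57 on CAS 1, 5.98 on CAS 2 and 6.58 on CAS 3. The other lists are given above, with the metal carriers for SPI and with the fatty acid and choline carriers for GEN. The part of RNA from any of these cell types in the genes' differences was not tested.

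Of the 21 amino acid carriers, 1 was lower and 1 higher in SPI than in GEN at an unadjusted p under 0.05. Slc38a5, a glutamine carrier, had signals of 203.5, 176.2, 281.7 and 166.6 on the SPI arrays, 246.2, 377.6 and 331.3 on the GEN arrays, and 272.8, 281.8 and 228.3 on the CAS arrays. SPI 4 overlapped the GEN range, and the difference of SPI against GEN was -0.63 ± 0.22 (limma adjusted p = 0.558). The glycine carrier gene Slc6a9 had 587.6, 548.1, 567.7 and 613.4 on the SPI arrays, 526.8, 373.6 and 414.1 on the GEN arrays, and 511.3, 484.3 and 568.1 on the CAS arrays. All SPI arrays were above all GEN arrays, by 0.42 ± 0.15 (limma adjusted p = 0.563), but its other tested probe set gave -0.36, and the mean of both gave 0.03.

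Of 6 carriers of acid and base ions, 1 was lower in SPI than in CAS at an unadjusted p under 0.05. Slc4a4, the sodium bicarbonate cotransporter, had signals of 176.6, 193.8, 82.8 and 141.4 on the SPI arrays, 165.0, 281.6 and 167.3 on the GEN arrays, and 356.2, 200.6 and 218.1 on the CAS arrays. SPI arrays were all below CAS arrays, although SPI 3 and CAS 2 were close, and the difference was -0.82 ± 0.32 (limma adjusted p = 0.987). It was -0.56 without SPI 4 and also -0.56 without CAS 1. The mean signal of Slc4a4 was 149 on the SPI arrays, under the limit of 160, and the gene was included through its means of 205 on the GEN arrays and 258 on the CAS arrays, so its difference is a description. Slc24a3, which exchanges sodium for calcium and potassium, had 313.6, 361.7, 401.8 and 424.8 on the SPI arrays, 566.6, 447.4 and 476.7 on the GEN arrays, and 369.6, 516.9 and 316.4 on the CAS arrays. SPI lay below GEN without overlap, at -0.41 ± 0.19 (limma adjusted p = 0.628).

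In the remaining classes of 3 or more genes, no gene had an unadjusted p under 0.05, and the gene with the smallest p is given. The potassium chloride cotransporter gene Slc12a7 was lower in GEN than in CAS by a log2 difference of -0.35 ± 0.19 (-0.55 without CAS 1). Slc35a4, of the nucleotide sugar family, had 478.3, 434.1 and 465.0 on the GEN arrays and 346.4, 350.7 and 383.8 on the CAS arrays, a difference of 0.35 ± 0.16 without overlap. Slc29a3, a nucleoside carrier of lysosomes, had -0.34 ± 0.24 for SPI against CAS, with -0.59 without CAS 2 and -0.20 without CAS 3.

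Slc16a6, a monocarboxylate carrier family member, had 0.47 ± 0.24 for SPI against GEN, which was 0.27 without SPI 4 and 0.30 without GEN 5. The 4 nucleoside carriers were all lower in SPI than in GEN (median -0.21), and 3 of 4 were after quantile normalization or centring. Of all 9520 probe sets tested, 4836 were lower in SPI than in GEN, 4641 after quantile normalization and 3821 after centring. In GEN against CAS, 3 of the 4 sodium and calcium exchangers and 3 of the 5 chloride cotransporters were higher, with medians of 0.25 and 0.22.

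A second probe set is a check where a gene has one, because it measures the same gene with other probes. Of the genes named above for their differences, only Slc6a9 and Slc16a6 had another tested probe set, so the values of the others were not checked this way. Of the 129 genes, 13 had another tested probe set, 14 in all. The other probe set had the same sign as the brightest in 7 of 14 cases between SPI and CAS, 4 of 14 between GEN and CAS, and 4 of 14 between SPI and GEN. For the glucose transporter gene Slc2a3, SPI against CAS was 0.37 on the brightest probe set and -0.05 on the other, and for the insulin-responsive Slc2a4 it was 0.23 and -0.11. Slc16a6 gave 0.47 and -0.07 for SPI against GEN.

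**Figure D4:**
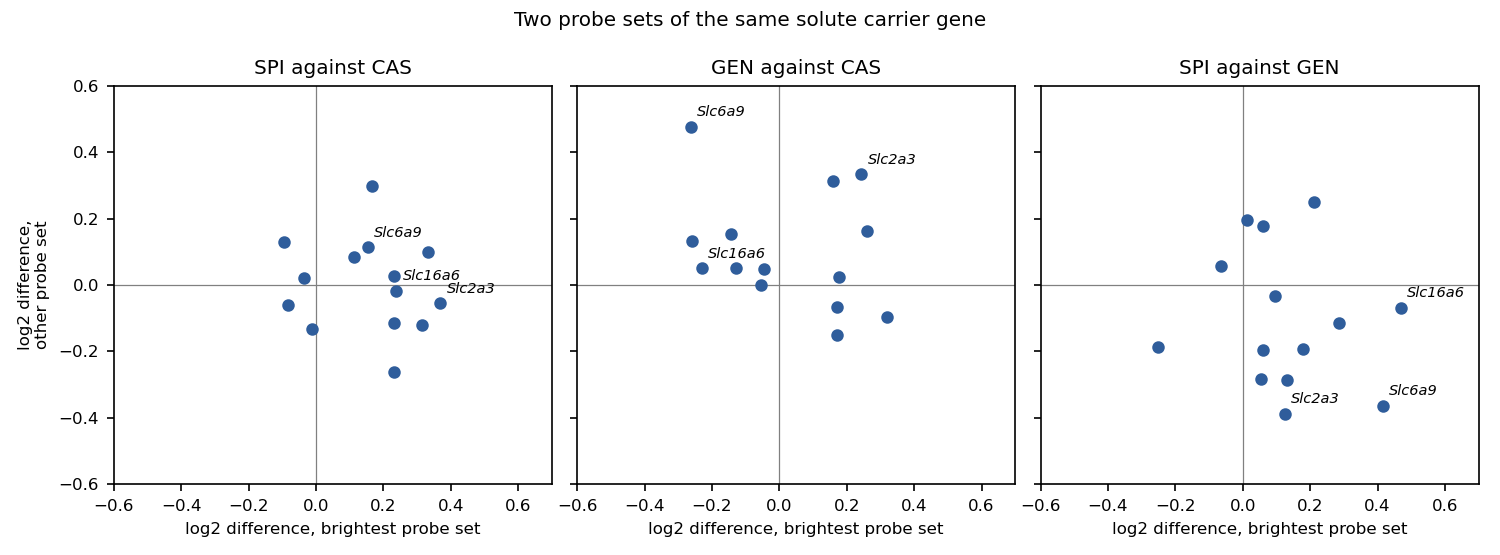
Log2 difference on the brightest probe set (horizontal axis) and on another tested probe set of the same gene (vertical axis), 14 points from 13 genes in each comparison. Points in the upper left and lower right of a panel have opposite signs, among them Slc6a9 in SPI against GEN at 0.42 and -0.36.

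Arrays of the same diet differed about as much for solute carriers as for other genes. The median SD of log2 signal within diets was 0.258 for the 129 genes (quartiles 0.191 and 0.319), and 0.245 for all probe sets tested (0.183 and 0.329). The most variable and steadiest genes, picked after their values were seen, show the span. Slc52a2, a riboflavin carrier, had an SD of 0.566, with signals of 209.4, 267.2, 274.0 and 293.7 on the SPI arrays, 140.7, 399.2 and 236.2 on the GEN arrays, and 345.9, 135.9 and 270.0 on the CAS arrays. The mitochondrial carrier gene Slc25a30 had an SD of 0.0925, with signals of 689.8, 703.3, 730.4 and 688.9 on the SPI arrays, 707.3, 742.3 and 738.8 on the GEN arrays, and 698.2, 764.4 and 872.6 on the CAS arrays. Slc3a2, the shared heavy chain of several amino acid exchangers, had an SD of 0.110.

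**Figure D5:**
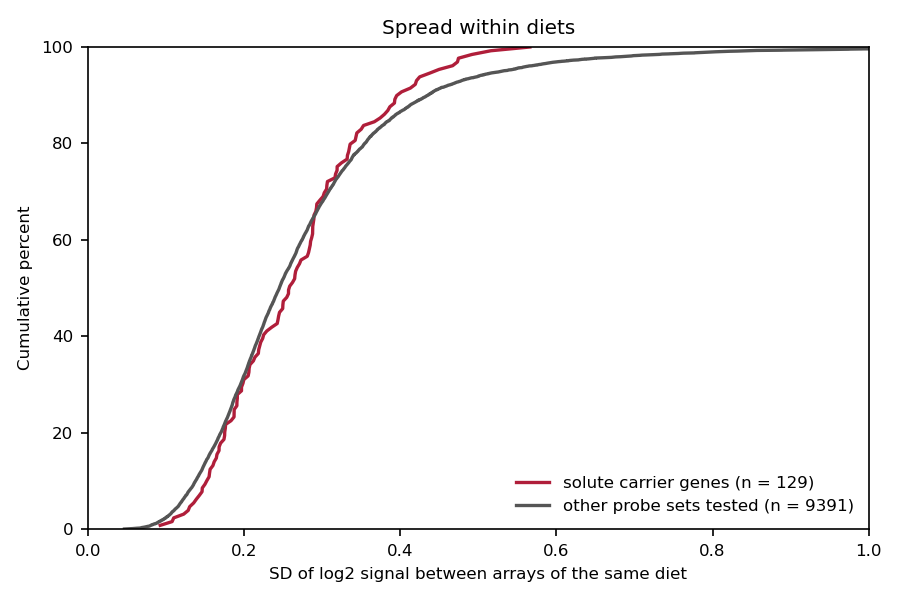
Cumulative percentage of probe sets against the SD of log2 signal between arrays of the same diet, for 129 solute carrier genes and 9391 other probe sets tested. The curves cross near their middle, with medians of 0.258 for the solute carriers and 0.245 for all probe sets tested.

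Genes of 4 other transporter groups were measured beside the solute carriers. Of the organic anion transporters (Slco), 4 of 12 genes on the array were tested, as were 2 of 5 sodium pump subunits, 3 of 9 aquaporins and 11 of 24 ABC transporters, and 0 passed an adjusted p of 0.05 in limma in any comparison. An unadjusted p under 0.05 was found for 0 of these 20 genes in SPI against CAS, 3 in GEN against CAS and 3 in SPI against GEN (shares over all probe sets 4.82%, 5.89% and 7.95%). In GEN against CAS, Slco2a1 had -0.52 ± 0.19, the sodium pump subunit gene Atp1b1 -0.52 ± 0.21 and the water channel gene Aqp5 -1.87 ± 0.69 (limma adjusted p = 0.825 each). Aqp5 had a signal of 110 ± 50.5 on GEN arrays and 478 ± 366 on CAS arrays (SD). Its GEN mean lay under 162, the lowest geometric mean tested. The gene was thus tested through its means of 195 on the SPI arrays and 478 on the CAS arrays, and its difference is a description. In SPI against GEN, the prostaglandin transporter gene Slco2a1 had a signal of 1099 ± 158 on SPI arrays and 699 ± 93.6 on GEN arrays (SD), a log2 difference of 0.65 ± 0.17 (SE; adjusted p = 0.461). Slco1a4 had -0.56 ± 0.16. Atp1b1 had 929 ± 98 on SPI arrays and 593 ± 180 on GEN arrays, with 0.69 ± 0.20.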

How the data were processed

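The authors deposited 1 table that holds linear MAS5 signal intensity for each probe set, per the submitters' processing notes. The trimmed mean was 499.81 to 499.83 on every array, so a global scaling to about that level was read from the values. The version of MAS5 and the way targets were assigned to pools are not given in the sources used here. Probe sets other than the 57 controls numbered 15866, and intensities under 1 (0.0637%) were raised to 1 ahead of the log2 step. The dimmest 40% of probe sets by mean log2 value were dropped, which left 9520, the lowest of them at a geometric mean of 162. Symbols are those of the platform annotation; a single symbol was given for 12783 probe sets, several for 312 and none for 2771. All 130 solute carrier genes matched a RefSeq gene record.

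Diets were compared with limma 3.58.1 in R 4.3.3 (moderated by eBayes along an intensity trend after lmFit), all 10 arrays together, with 7 residual degrees of freedom (12.9 with the prior) and Benjamini-Hochberg adjustment over the 9520 probe sets. Precision is set by the few arrays: half-widths of the 95% interval had medians over solute carriers of 0.43, 0.46 and 0.43 log2 units in SPI against CAS, GEN against CAS and SPI against GEN.

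The genes, the substrate classes and the marker lists were chosen with earlier results of these data known. The genes named were those past an adjusted p of 0.05 (0), the 8 highest and 8 lowest differences at an unadjusted p under 0.05, the smallest p of each class of 3 or more genes with none of these, and the 3 genes on each side of the signal limit. Genes outside this rule are marked in the text as picked on their values, apart from the second probe sets and the other transport genes. The alternatives were quantile normalization, centring on the median, other filters on dim probe sets, an offset of 16, no intensity trend, the mean of a gene's probe sets, a signal limit of 320, the replicate number as a block, the actin ratio as a covariate and leaving out each array.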

Additional observations from a re-analysis of the deposited data

Results flagged for a closer look

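Values of the 24 named genes over the 4 SPI arrays were looked at for an array far from the others, using Dixon's 95% critical value for the gap to the nearest array as a share of the group's range. Such a gap was found in 3 of 24 groups. The genes had been named from the same arrays, many by comparisons with SPI, so that count has no chance rate to set beside it. Slc66a1 was at 138.3 on SPI 4, against 181.0 to 188.4 on the other SPI arrays. Slc30a4 was at 782.4 on SPI 5, against 634.6 to 648.8 on the others. Slc30a5 was at 162.7 on SPI 3, against 229.2 to 241.9 on the others. The array at a distance was a different one each time, and groups of 3 arrays were not looked at.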

How the results depend on the processing

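The count of solute carriers past an adjusted p of 0.05 in limma was 0 under each of the 20 other settings in every comparison. All 548 values of named genes over 29 gene and comparison pairs kept their sign, with a smallest limma adjusted p of 0.307. These pairs were picked by their p in the same arrays, so the kept sign is no separate support for them. At an unadjusted p under 0.05, the 7 genes of SPI against CAS became 4 with median centring, 2 without the lowest 60% of probe sets, 2 with a signal limit of 320 and 4 to 14 when 1 array was left out (14 without CAS 2, 4 without CAS 3). The 7 of GEN against CAS became 3 with the 60% filter, 3 with the limit of 320 and 4 to 10 with 1 array left out (4 without CAS 3). The 11 of SPI against GEN became 5 with the 60% filter, 6 with the limit of 320 and 6 to 13 with 1 array left out (6 without SPI 3, 7 without GEN 3, 6 without GEN 5). Fewer genes enter under the 60% filter and the limit of 320, and for the other settings the cause was not tested. The limit of 320 keeps the main fit and its shares over all probe sets, and the shares with median centring are given above. Under the 60% filter and with 1 array left out, the shares over all probe sets were not counted. The counts under those settings are therefore no result about solute carriers in particular. The median log2 difference of SPI against CAS was 0.0396 with centring, 0.0198 with the 60% filter, 0.0144 with the limit of 320 and -0.067 to -0.00896 with 1 array left out. That of GEN against CAS was 0.0703 with the 60% filter and -0.0245 to 0.0825 with 1 array left out, and that of SPI against GEN was 0.0431 with centring and -0.0478 to 0.00894 with 1 array left out. Over all probe sets tested, the medians with centring were 0.0599 for SPI against CAS and 0.0569 for SPI against GEN.

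Deviations of arrays with the same replicate number in their titles correlated at -0.18 to 0.16. Arrays with different numbers were not looked at, so whether the numbers pair the arrays cannot be told from these values. With the number as a replicate block, the counts at an unadjusted p under 0.05 were 4, 4 and 5 in SPI against CAS, GEN against CAS and SPI against GEN. The shares over all probe sets with that block were not counted. Under that block Slc4a4 had -0.41 for SPI against CAS, and Slc25a38 -0.42, Slc30a4 -0.35 and Slc16a6 0.30 for SPI against GEN. Slc16a6 had 0.20 as the mean of its probe sets.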

Other observations

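Of the 129 solute carriers tested, 8 had both their lowest signal on the array CAS 3 and their highest on SPI 4 (6.2%, against 2.86% of all probe sets tested). They were looked for after such genes had been noticed, and the count carries no test. SPI 4 is the array with the actin 3'/5' ratio of 7.77, and the part of RNA quality was not tested. The 8 were the glucose transporter genes Slc2a1 and Slc2a3, the amino acid carrier genes Slc1a5, Slc7a1 and Slc38a2, the phosphate carrier gene Slc20a1, the mitochondrial ATP-Mg carrier gene Slc25a25, and Slc66a2. Slc2a1 was at 888.4 on SPI 4 and at 463.5 on CAS 3, with 706.1 the lowest value elsewhere. Slc66a2 was at 3915.2 and 1385.4 on these arrays, Slc20a1 at 5140.6 and 1948.5, and Slc25a25 at 4921.3 and 1155.6. Slc1a5 was at 1899.1 and 1085.6.

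The log2 differences of SPI against CAS, which these 2 arrays enter, were 0.30 ± 0.19 for Slc2a1, 0.22 ± 0.27 for Slc20a1 and 0.60 ± 0.31 for Slc25a25, the second highest of all solute carriers in that comparison. None passed an adjusted p of 0.05 in limma.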
